A study of Homo sapiens with 9 samples.

Results

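The genes described here make and carry amino acids. They comprise 31 protein-coding gene symbols of serine and glycine synthesis, folate one-carbon metabolism, transsulfuration, asparagine and proline synthesis, glutamate and glutamine metabolism with its transaminases, and amino acid transport across the plasma membrane. The members, and the lists of other genes used below, were fixed by symbol with earlier results of these data known. Their shares of calls are thus no independent test against the shares over all genes. They matched 32 of the 64253 genes in the deposited count table, because CBS is listed under 2 identifiers. All 32 passed the filter on low counts, which left 16366 genes for testing.

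The measurements are RNA sequencing read counts from EPC2, a cultured line labelled as normal squamous epithelium of the human esophagus. The labels give 3 groups of 3 libraries: untreated cells (Ctrl), cells transfected with an empty vector through the lipid reagent Lipofectamine 2000 (Lipo), and cells transfected with a plasmid that overexpresses FOXF1, a forkhead transcription factor, through the same reagent (Fox). The libraries of a group are described as biological triplicates, all from 1 cell line, and every p-value measures the spread between these libraries. The hours between transfection and harvest are not given in the labels, and neither is the amino acid content of the media. Because the untreated cells received neither reagent nor vector DNA, effects of reagent and DNA cannot be told apart in the comparison of the empty vector with untreated cells. Plasmid and chromosomal FOXF1 transcripts are counted as 1 gene.

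Library totals ran from 34390666 to 39973289 reads. FOXF1 had 1, 0 and 0 reads in untreated cells, 0, 0 and 6 after empty vector transfection, and 367, 184 and 141 in the plasmid group. Of 12 squamous epithelial markers, 11 stayed below 1 CPM (reads scaled by the size of the library) in every library. TP63, a master regulator of squamous epithelium, had 0 reads in all 9 libraries, and KRT5, a basal keratin, had 8 to 19. Summed levels of 6 simple epithelial markers were 3446 to 4687 CPM. Most of this came from KRT7, KRT8 and KRT18, which ranged from 974.1 to 1646 CPM. EPCAM and CDH1 were far lower, at 4.18 to 5.08 and 7.85 to 11.4 CPM. The defining squamous markers are thus at or near 0 in these libraries, against the label of the line. Among 8 fibroblast markers, 5 were below 1 CPM in every library. The others were COL1A1 at 1079 to 1738 CPM, THY1 at 735.1 to 1012 and PDGFRB at 35.2 to 56.7. PTPRC, the pan-leukocyte marker, had 0 reads, although CD14 was read at 8.57 to 11.5 CPM.

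As background, cells build serine from a glycolytic intermediate through PHGDH, PSAT1 and PSPH. The SHMT enzymes then split serine into glycine and a one-carbon unit carried by folate, which feeds purine, thymidylate and methionine synthesis. Folate reactions run in parallel in the cytosol and in mitochondria, with separate enzymes in each compartment. Many of these genes, together with ASNS and several transporters, are known targets of ATF4, the transcription factor of the amino acid response and of the integrated stress response.

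ATF4 with C/EBP partners binds a composite element whose core is written TGATGNAA, and MYC with its partner MAX binds the E-box CACGTG. Both strands of the 250 bases before each start site were searched in the RefSeq promoter table (GRCh38.p14), which held 24 of the 31 symbols with 42 start sites. TGATGNAA was found in 6 of the 42 member promoters (14.3%), against 3.14% of the 35116 promoters in the table. Counted by gene, it was found in 5 of 24 members (20.8%), against 3.89% of 27305 genes. These matches belong to the 5 genes shown here because they carry the letters of the element, with the match in capitals (as TTGCATCA, its reverse complement, in GOT1).
ASNS (chr7:97872458-97872487, minus strand): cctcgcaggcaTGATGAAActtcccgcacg
MTHFD1L (chr6:150866346-150866375, plus strand): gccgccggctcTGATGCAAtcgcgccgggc
GOT1 (chr10:99430804-99430833, minus strand): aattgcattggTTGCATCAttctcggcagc
BCAT1 (chr12:24949131-24949160, minus strand): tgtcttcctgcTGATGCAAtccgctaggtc
SLC1A5 (chr19:46784893-46784922, minus strand): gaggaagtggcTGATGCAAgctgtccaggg
The ASNS match lay 68 to 61 bases before the start. In MTHFD1L 2 start sites share the same match. Each of the windows shown overlaps an annotated untranslated region. Of the 5 genes with a match, 2 (ASNS and SLC1A5) were called higher with the empty vector, as were 14 of the 19 without one. Over all genes tested the share called higher was 10.2%. Neither count holds the 7 symbols absent from the promoter table: PSPH, SHMT2, ALDH1L2, PYCR1, GPT2, SLC7A11 and BCAT2. All of these but BCAT2 were called higher. Whether calls differ with the match was not tested. A match is a description of letters in this window and shows no binding.

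The E-box was found in 7 of the 42 member promoters (16.7%), against 6.34% of all promoters in the table. Counted by gene, the shares were 25% of 24 members and 7.73% of all genes. The E-box lay in 6 genes: MTHFD1L, ALDH18A1, SLC43A1, MTHFD1, SLC7A5 and SLC1A5. In SLC1A5 the E-box and the TGATGNAA match precede different start sites. The windows of the leucine transporter gene and of the proline synthesis gene ALDH18A1 are shown as examples from a member that was called higher with the empty vector and one that was not.
SLC7A5 (chr16:87869605-87869664, minus strand): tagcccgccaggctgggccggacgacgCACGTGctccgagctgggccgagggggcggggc
ALDH18A1 (chr10:95656815-95656874, minus strand): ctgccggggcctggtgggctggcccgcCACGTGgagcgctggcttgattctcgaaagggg
Of the 6 genes with this match 3 were called higher with the empty vector, as were 13 of the 18 without it. The same 7 symbols are missing from these counts, and 10.2% of all genes tested were called higher. The motifs do not overlap each other in any of these windows.

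In untreated cells the members spanned more than 3 orders of magnitude in level, here given as CPM per kilobase of exon for a rough comparison of genes. The length is the union of exons over all annotated transcripts, which can exceed that of the transcript in use. The SDs do not cover this. Before division by its 9.217 kb, PHGDH had the highest level, 673.5 CPM against 485 for SLC7A5. The highest were SLC7A5, the light chain of the large neutral amino acid exchanger LAT1, at 102.2 ± 6.1, and SLC1A5, a glutamine exchanger, at 98.7 ± 5.5 (SD, n = 3), which do not differ beyond their spread. GOT2, the mitochondrial aspartate transaminase, followed at 92.6 ± 2.4. PHGDH, the first enzyme of serine synthesis, at 73.1 ± 3.3 and PYCR1, the mitochondrial enzyme of the last step of proline synthesis, at 71.4 ± 2.9 are again within their spread of each other. SLC3A2, the heavy chain that LAT1 and the cystine exchanger share, stood at 64.4 ± 2.1, and SHMT2, the mitochondrial serine hydroxymethyltransferase, at 55.6 ± 2.4.

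A broad middle of the ranking, from MTHFD1 at 32.4 ± 4.0 to PSPH at 8.25 ± 0.44 CPM per kilobase, held most of the other synthetic enzymes. Within it PSAT1, SHMT1, GLUD1 and ASNS lay between 17.2 and 15.2 and were not separated from their neighbours by more than their spread. The lowest members were BCAT1 at 0.128 ± 0.048, the second CBS entry at 0.0635 ± 0.033 and SLC7A11, the cystine and glutamate exchanger, at 0.0312 ± 0.0078. SLC7A11 thus sat far below its partner SLC3A2 in the ranking.

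**Figure D1:**
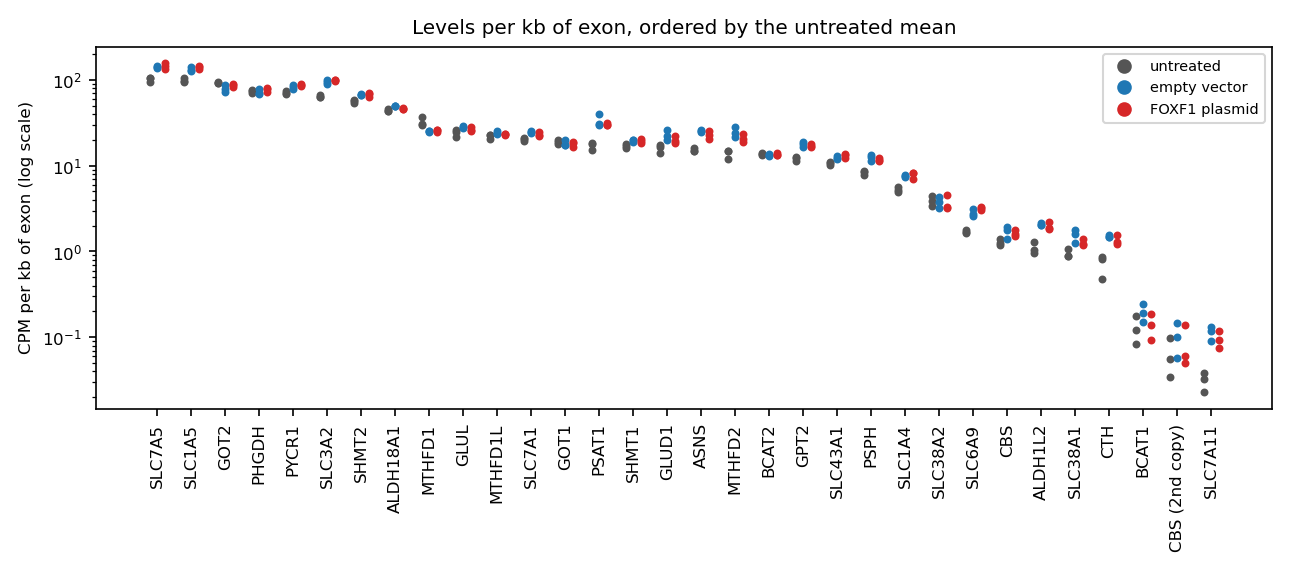
Level of each member in each of the 9 libraries, in CPM per kilobase of exon on a log axis, with genes ordered by the untreated mean and 1 point for each library. SLC7A5 and SLC1A5 head the ranking in untreated cells, at 102.2 and 98.7, and SLC7A11 ends it at 0.0312.

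All members together made up 0.394% ± 0.015 of all reads in untreated cells, 0.552% ± 0.0060 after empty vector transfection and 0.519% ± 0.0073 after FOXF1 transfection (SD, n = 3). Mitochondrially encoded transcripts moved the other way, from 20.9% ± 2.0 of reads in untreated cells to 11.2% ± 0.76 with the empty vector and 14.1% ± 0.52 with the plasmid. Fold changes below were therefore taken on library sizes scaled by TMM, a method that sets the bulk of genes to no change. On that scale the members summed to 4314 ± 9.4, 5100 ± 121.9 and 5137 ± 147.1 CPM. In bulk RNA, fewer cells with a transcript and less of it per cell cannot be told apart.

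With the empty vector, transcripts of PSAT1 and PSPH of serine synthesis, of the mitochondrial folate enzymes MTHFD2 and ALDH1L2, of CTH and ASNS, and of 9 of the 10 transporters rose against untreated cells. Of the 32 members 22 were called higher and 2 lower at an adjusted p below 0.05, and 8 were not called. Over all genes tested 10.2% were called higher and 9.37% lower. The members' median log2 fold change was 0.45, against 0.04 over all 16366 genes. Because earlier results were known when the members were chosen, these contrasts with all genes are descriptive. Scaling by library totals alone, which leaves the mitochondrial share in the scale, shifts the median of all genes up by a further 0.25 on the log2 scale and calls 28 members higher and none lower. Under that scaling 5721 of all 16366 genes are called higher and 338 lower. Of these calls 94.4% are higher, against 52.2% with TMM.

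The comparison of the FOXF1 plasmid with untreated cells shares the untreated libraries, so its values are given side by side and are no independent repeat. It called 20 members higher and 1 lower, where 4.63% of all genes were called higher and 3.89% lower. The members' median log2 fold change was 0.34, against 0.02 over all genes. Scaling by library totals moves the median of all genes by 0.15. It gives 25 members higher and none lower (PHGDH, MTHFD1L, CBS, ALDH18A1 and GLUL gained, MTHFD1 lost). Over all 16366 genes it calls 2320 higher and 180 lower, with 92.8% of all calls higher against 54.3%.

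Between the 2 transfected groups no member passed the test. The FOXF1 plasmid against the empty vector called 0 of 32 members in edgeR's quasi-likelihood test, and 0.055% of all genes higher and 0% lower. At an unadjusted p below 0.05 there were 0 members higher and 4 lower, where 5.09% of all genes were higher and 4.34% lower, and limma-voom and DESeq2, which gave 16 of the members an adjusted p, called 0 as well. Those 4 had log2 fold changes of -0.24 for MTHFD2, -0.28 for SLC38A1, -0.18 for GLUD1 and -0.16 for ASNS, with adjusted p from 0.387 to 0.519. Of the 32 values 21 were below 0 and 11 above, with a median of -0.05 against -0.01 over all genes. The 95% intervals of the well-read members were narrow, for example -0.12 to 0.16 for SLC7A5 and -0.14 to 0.12 for SHMT2 on the log2 scale. For SLC7A11 the interval of -1.02 to 0.48 leaves room for a 2-fold difference. The 2 groups' libraries overlapped for every member except ALDH18A1, whose 3 empty vector libraries (184.4, 187.7 and 186.4 CPM) all lay above the 3 plasmid libraries (171.4, 177.9 and 169.9 CPM), at an adjusted p of 0.608. The share of all genes whose libraries separate in this way was not counted in any comparison.

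**Figure D2:**
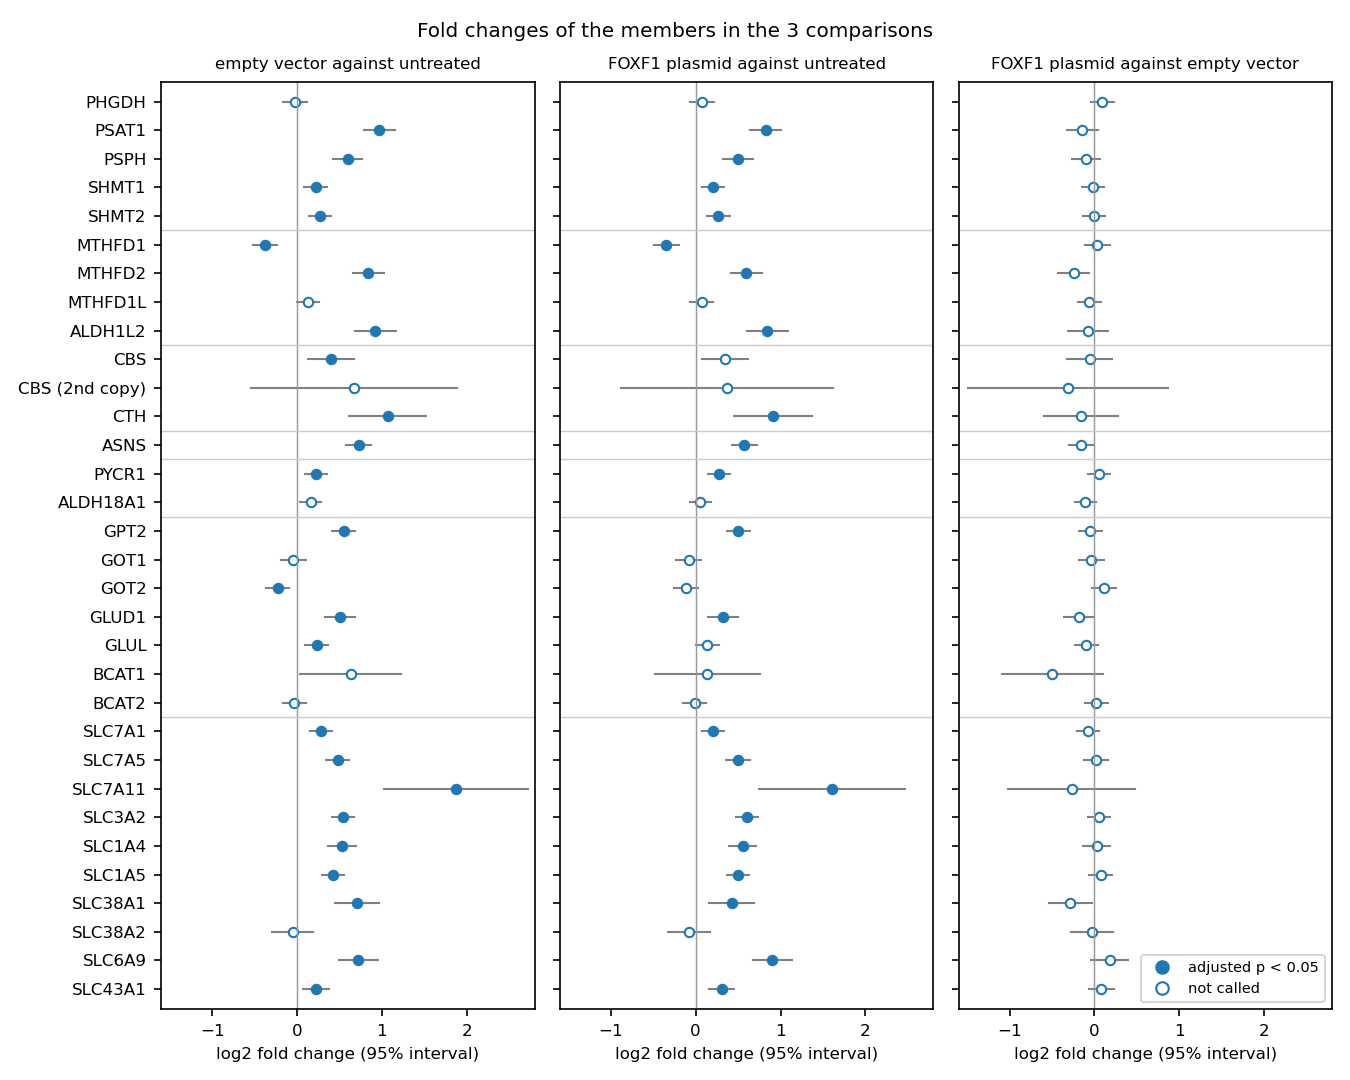
Log2 fold change of each member with its 95% interval in the 3 comparisons, from the edgeR fit with TMM scaling. Filled points have an adjusted p below 0.05: 24 members with the empty vector against untreated cells, 21 with the FOXF1 plasmid against untreated cells and 0 between the transfected groups. By library totals alone the falls of MTHFD1 and GOT2 are not called, and GOT2 turns to 0.02 with the empty vector. RLE factors, DESeq2 and limma-voom call both lower with the empty vector, as the TMM fit does.

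In the serine branch the enzymes after the first step rose, and that of the first step was not called. PSAT1 (ENSG00000135069; chromosome 9, 78297143 to 78330093, plus strand, GRCh38), the transaminase of the second step, had 1185, 1400 and 1430 reads in untreated cells, 2601, 2976 and 3760 with the empty vector, then 2607, 2237 and 2607 with the plasmid. All 6 transfected libraries lay above the 3 untreated ones. Its level rose from 37.6 ± 3.5 to 73.5 ± 12.1 CPM with the empty vector (log2 fold change 0.97, SE 0.09, adjusted p = 4.68e-09) and to 66.7 ± 2.5 CPM with the plasmid (0.83).

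PSPH, the phosphatase of the last step, had 814, 778 and 839 reads in untreated cells, against 1242, 1550 and 1590 with the empty vector, then 1352, 1061 and 1194 with the plasmid. Its transfected libraries did not overlap the untreated ones, and it rose by 0.60 with the empty vector (SE 0.08, adjusted p = 6.19e-06) and by 0.50 with the plasmid on the log2 scale. PHGDH, by contrast, was at 673.5 ± 30.8, 663.6 ± 44.5 and 708.2 ± 37.3 CPM in the 3 groups, and their libraries overlapped. Its log2 fold change with the empty vector was -0.02, with a 95% interval of -0.16 to 0.12, and it became 0.22 with an adjusted p of 0.00287 when scaled by library totals alone.

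SHMT2 and SHMT1 interconvert serine and glycine in mitochondria and cytosol. SHMT2 had 9551, 9302 and 9861 reads in untreated cells, 13194, 14324 and 13705 with the empty vector, then 12139, 11289 and 12695 with the plasmid. SHMT1 had 4282, 4239 and 4557 reads, then 5721, 6089 and 6259, then 5345, 4832 and 5584. Both rose by small amounts with no overlap of the transfected and untreated libraries, SHMT2 by 0.27 (adjusted p = 0.00235) and SHMT1 by 0.22 (adjusted p = 0.0152) with the empty vector. With the plasmid they rose by 0.27 and 0.20. The SHMT2 rise with the plasmid was lost without untreated replicate 2, plasmid replicate 2 or plasmid replicate 3 (adjusted p = 0.0842, 0.0576 and 0.0511), and that of SHMT1 without those, untreated replicate 1 or empty vector replicate 2 (adjusted p from 0.0539 to 0.246). SHMT1 with the plasmid was also not called with RLE factors, without mitochondrially encoded genes or without a filter on low counts (adjusted p = 0.0829, 0.0618 and 0.0756). The SHMT1 call with the empty vector was lost when untreated replicate 1, untreated replicate 2 or empty vector replicate 3 was left out (adjusted p = 0.0668, 0.114 and 0.0554).

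Of the 4 folate enzymes, mitochondrial ALDH1L2 and MTHFD2 rose, mitochondrial MTHFD1L was not called, and cytosolic MTHFD1 fell on the TMM scale, a fall not called with library totals alone. ALDH1L2, a mitochondrial dehydrogenase that oxidises formyl-folate, had 308, 393 and 287 reads in untreated cells, 688, 753 and 781 with the empty vector, then 748, 538 and 578 with the plasmid. MTHFD2, the mitochondrial methylene-folate dehydrogenase and cyclohydrolase, had 2039, 2587 and 2538 reads, then 4150, 5150 and 5970, then 3688, 3414 and 4218. Neither gene's transfected libraries overlapped the untreated ones. With the empty vector ALDH1L2 rose by 0.92 (SE 0.12, adjusted p = 1.38e-06) and MTHFD2 by 0.84 (SE 0.09, adjusted p = 7.79e-08), and with the plasmid by 0.85 and 0.60.

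MTHFD1, the trifunctional cytosolic enzyme, had untreated levels of 283.5, 347.4 and 280.3 CPM, against 236.4, 230.0 and 234.6 with the empty vector, then 241.6, 232.1 and 243.9 with the plasmid. The second untreated library was the highest, and all 6 transfected libraries lay below the untreated 3. It fell by 0.38 with the empty vector (SE 0.07, adjusted p = 2.35e-04) and by 0.34 with the plasmid (adjusted p = 0.00165), but with library totals alone the changes were -0.13 and -0.20 with adjusted p of 0.142 and 0.0628. MTHFD1L, the mitochondrial formyl-folate synthetase, was not called (0.13 and 0.07).

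A ratio of 2 genes within a library does not depend on the scaling of the library. MTHFD2 to MTHFD1, in reads per kilobase, was 0.394, 0.395 and 0.495 in untreated cells, 0.853, 0.979 and 1.14 with the empty vector, then 0.731, 0.834 and 0.888 with the plasmid. The ratio was thus higher in all 6 transfected libraries. MTHFD1L to MTHFD1 behaved alike, with means of 0.687, 0.969 and 0.910 and no overlap of the untreated with either transfected group. For both ratios the exact two-sided permutation test of each transfected group against untreated cells gave p = 0.1, the smallest that 3 against 3 libraries allow, and 0.3 after Benjamini-Hochberg adjustment over 21 tests of 7 pairs.

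The remaining pairs did not all behave alike. The ratio of SHMT2 to SHMT1 was 3.31 ± 0.050, 3.44 ± 0.13 and 3.45 ± 0.056 in the 3 groups, and that of GOT2 to GOT1 was 4.92 ± 0.34, 4.34 ± 0.53 and 4.81 ± 0.21 (SD, n = 3). The plasmid libraries of the first ratio lay just above the untreated ones (p = 0.1 in the exact test), and the groups of the second overlapped. The ratio of SLC7A5 to its partner SLC3A2 was 1.59 ± 0.10, 1.52 ± 0.074 and 1.48 ± 0.12, and its groups overlapped as well. SLC7A11 to SLC3A2 was 0.000483 ± 0.00011, 0.00123 ± 0.00027 and 0.000977 ± 0.00022, with all transfected libraries above the untreated ones. Its log2 shifts were 1.35 with the empty vector and 1.02 with the plasmid. The exact test gave p = 0.1 for each (0.3 adjusted), on the small read counts of SLC7A11. BCAT2 to BCAT1 ranged from 52.1 to 161.9 over the 9 libraries, and its groups overlapped.

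**Figure D3:**
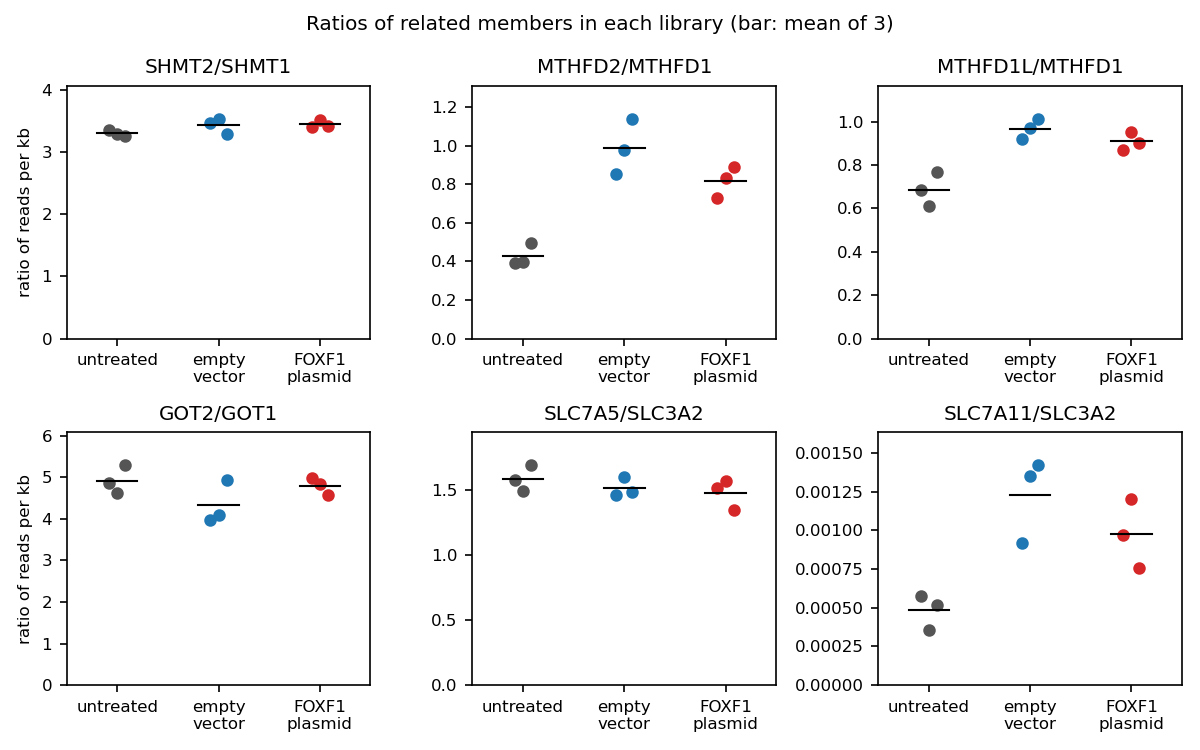
Ratios of related members in reads per kilobase, with 1 point for each library and a bar at the mean of 3. MTHFD2 to MTHFD1 runs from 0.394 to 0.495 in untreated cells and from 0.731 to 1.14 in the transfected libraries, while SHMT2 to SHMT1 stays between 3.26 and 3.54.

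Transsulfuration converts homocysteine to cysteine through CBS and CTH. CTH, which releases cysteine, had 41, 71 and 73 reads in untreated cells, 140, 166 and 155 with the empty vector, then 124, 101 and 139 with the plasmid. All transfected libraries were above the untreated ones, and the rise was 1.07 with the empty vector (SE 0.22, adjusted p = 7.99e-04) and 0.91 with the plasmid on the log2 scale. The call with the plasmid was lost without untreated replicate 1 or plasmid replicate 3 (adjusted p = 0.0875 and 0.0618). CBS (ENSG00000160200; chromosome 21, 43053191 to 43076943, minus strand) had 299, 294 and 338 reads, then 516, 528 and 410, then 492, 349 and 402. It was called higher with the empty vector (0.40, adjusted p = 0.0316) although 1 empty vector library, at 9.53 CPM, lay inside the untreated range of 8.10 to 9.59. Its call was lost without untreated replicate 1 or 2 or empty vector replicate 1 or 2, with adjusted p of 0.102 to 0.132, and it was not called with the plasmid (0.34, adjusted p = 0.11). The second CBS entry (ENSG00000274276; 21, 6444869 to 6468040) had 5 to 25 reads in a library, and since reads may be split between the copies both values are uncertain.

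ASNS, which makes asparagine from aspartate and glutamine, had 2298, 2621 and 2319 reads in untreated cells, 4304, 4952 and 4989 with the empty vector, then 3644, 3414 and 4179 with the plasmid. The untreated libraries were lowest, with no overlap. It rose from 67.8 ± 3.9 to 112.3 ± 3.7 CPM with the empty vector (log2 fold change 0.73, SE 0.07, adjusted p = 1.7e-08) and to 100.8 ± 10.4 CPM with the plasmid (0.57). In the proline branch PYCR1 had 7567, 7201 and 7217 reads, then 10053, 10560 and 9786, then 9847, 8438 and 9641. PYCR1 rose by 0.22 (adjusted p = 0.0119) and by 0.28 (adjusted p = 0.00413) without overlap, but its calls were lost without untreated replicate 2 (adjusted p = 0.0908 and 0.0558). ALDH18A1, which makes the proline precursor from glutamate, missed the threshold with the empty vector (0.16, adjusted p = 0.0589), was called with limma-voom and with a filter of 1 CPM in at least 3 libraries (adjusted p = 0.0481 and 0.0434), and was at 0.06 with the plasmid.

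Among the genes of glutamate and the transaminases, mitochondrial alanine transaminase (GPT2) and glutamate dehydrogenase (GLUD1) had the largest fold changes of the called members. GPT2 had 2779, 2610 and 2794 reads in untreated cells, 4713, 4624 and 4878 with the empty vector, then 4343, 3816 and 3966 with the plasmid. GLUD1 had 1740, 2126 and 2139 reads, then 2803, 3457 and 3895, then 2630, 2344 and 2893. In CPM neither gene's transfected libraries overlapped the untreated ones. GPT2 rose by 0.55 (adjusted p = 6.11e-07) and 0.50, and GLUD1 by 0.51 (adjusted p = 6.97e-05) and 0.33 (adjusted p = 0.0141), the last of which was lost without untreated replicate 1 or plasmid replicate 3 (adjusted p = 0.145 and 0.125). A transcribed pseudogene of GLUD1 held 19 to 53 reads in a library.

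GLUL, the glutamine synthetase, was at 194.4, 232.8 and 221.6 CPM in untreated cells, 262.3, 247.3 and 252.2 with the empty vector, then 227.6, 234.5 and 251.9 with the plasmid. It rose with the empty vector only slightly (0.23, adjusted p = 0.0148), a call lost without untreated replicate 1 (0.15, adjusted p = 0.193), and with the plasmid it overlapped the untreated libraries (0.14, adjusted p = 0.233). GOT2 was at 344.9, 342.3 and 359.3 CPM, then 295.8, 270.6 and 327.1, then 310.8, 332.5 and 323.9. It fell by 0.23 with the empty vector (adjusted p = 0.0152), a call that ended without empty vector replicate 2 (-0.16, adjusted p = 0.144) and turned to 0.02 with library totals alone (adjusted p = 0.867). With the plasmid its value was -0.11 (adjusted p = 0.341).

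The cytosolic aspartate transaminase GOT1 and the mitochondrial branched-chain transaminase BCAT2 were not called in any comparison, with TMM-scaled log2 fold changes between -0.08 and 0.02. BCAT1, the cytosolic branched-chain transaminase, had only 36 to 128 reads in a library, and its values of 0.63 with the empty vector and 0.14 with the plasmid were not called (adjusted p = 0.136 and 0.85), although the first was without untreated replicate 1 (0.94, adjusted p = 0.0474). With library totals alone GOT1 (0.20), BCAT2 (0.21), BCAT1 (0.89), ALDH18A1 (0.41) and MTHFD1L (0.37) were also called higher with the empty vector, at adjusted p of 3.89e-05 to 0.0291.

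**Figure D4:**
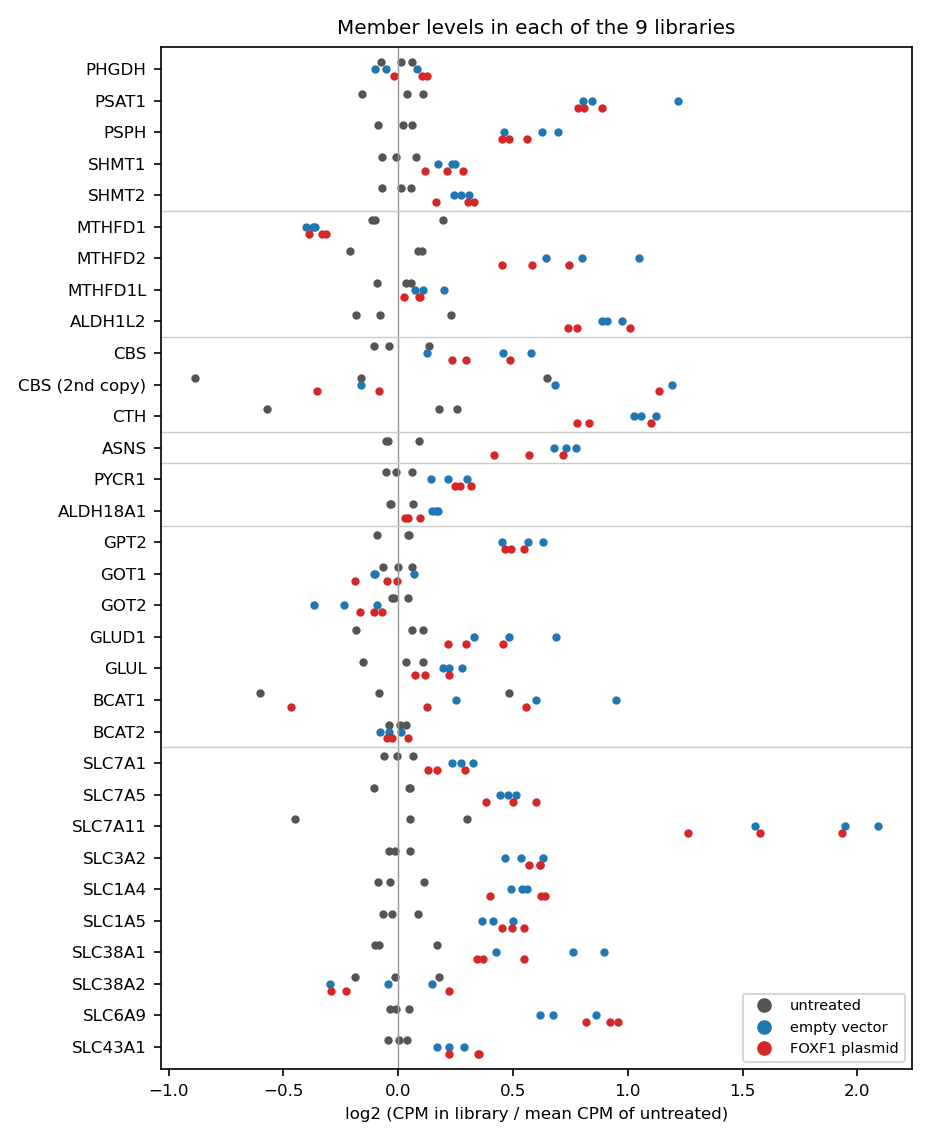
Level of each member in each library as the log2 ratio to the mean CPM of the 3 untreated libraries, with TMM scaling and lines between the branches. Transfected libraries of PSAT1, MTHFD2, ALDH1L2, ASNS, SLC3A2 and SLC6A9 all lie above the untreated ones, while PHGDH, BCAT2 and SLC38A2 overlap, and MTHFD1 lies below on this scale, a fall not called with library totals alone.

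Of the 10 transporters 9 were called higher with the empty vector and the same 9 with the plasmid. SLC7A11 had 13, 8 and 11 reads in untreated cells, 35, 51 and 55 with the empty vector, then 36, 39 and 27 with the plasmid. Every transfected library exceeded every untreated one, but these are small counts. Its log2 fold change was 1.87 with the empty vector (95% interval 1.03 to 2.72, adjusted p = 0.0014) and 1.60 with the plasmid (adjusted p = 0.0136), where DESeq2 gave no adjusted p and the call was lost without untreated replicate 2 or plasmid replicate 2 (adjusted p = 0.0726 and 0.0742).

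SLC6A9, the glycine transporter GLYT1, had 307, 311 and 320 reads in untreated cells, 633, 595 and 603 with the empty vector, then 624, 567 and 640 with the plasmid. SLC38A1, a sodium-coupled glutamine transporter, had 315, 388 and 312 reads, then 505, 780 and 693, then 559, 410 and 460. Both were above the untreated range in CPM in all 6 transfected libraries. SLC6A9 rose by 0.72 (SE 0.11, adjusted p = 2.4e-05) and 0.90, and SLC38A1 by 0.71 (SE 0.13, adjusted p = 1.41e-04) and 0.42 (adjusted p = 0.0351). Leaving out any plasmid library, or untreated replicate 1 or 3, ended the last of these calls, with adjusted p from 0.0613 to 0.157, and limma-voom did not make it either (adjusted p = 0.059).

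SLC3A2 had 12165, 11982 and 11447 reads in untreated cells, 20480, 20297 and 20791 with the empty vector, then 19915, 17387 and 19179 with the plasmid. It rose by 0.55 (SE 0.06, adjusted p = 3.02e-07) and 0.60, with no overlap, and its partner SLC7A5 by 0.48 and 0.50. SLC1A4, a neutral amino acid exchanger, rose by 0.53 and 0.56, and SLC1A5 by 0.43 and 0.50. Smaller rises came from SLC7A1, the carrier of arginine and other cationic amino acids (0.28 and 0.20), and SLC43A1, a transporter of large neutral amino acids (0.23 and 0.31). Both were close to the threshold in 1 comparison: SLC7A1 with the plasmid had an adjusted p of 0.0481 and was lost under 7 of the 9 fits that left out a library, and SLC43A1 with the empty vector had 0.0279 and was lost under 5. SLC7A1 with the plasmid was also not called with RLE factors, without mitochondrially encoded genes or without a filter (adjusted p = 0.0935, 0.0673 and 0.0826), and SLC43A1 with the empty vector was not called with RLE factors (adjusted p = 0.0686). The SLC43A1 call with the plasmid was lost without untreated replicate 2 or plasmid replicate 2 (adjusted p = 0.0617 and 0.056). SLC38A2, the transporter known for its induction by amino acid shortage, did not differ detectably, at 25.8 ± 3.3, 24.8 ± 3.8 and 24.3 ± 4.9 CPM in the 3 groups (SD, n = 3; 95% interval of the log2 fold change with the empty vector -0.30 to 0.19).

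Among the other genes of these pathways, calls on the TMM scale went both ways. They are read here beside the shares over all genes, which were 10.2% higher and 9.37% lower for the empty vector, against 4.63% and 3.89% for the plasmid. Of 33 tested genes of serine, glycine and one-carbon metabolism outside the members, 3 were called higher with the empty vector and 4 lower, near the shares over all genes. SFXN3, a mitochondrial serine carrier, rose by 0.22 and the purine synthesis gene GART by 0.20. ATIC, which takes folate one-carbon units into purines, fell by 0.73, GLYCTK by 0.35 and FPGS, which adds glutamates to folates, by 0.35. With the plasmid 1 was called higher (SFXN3, 0.29) and 2 lower, ATIC by 0.54 and AHCY, which clears S-adenosylhomocysteine, by 0.20. The second was at the edge of the threshold.

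Of 10 tested genes of transsulfuration and glutathione synthesis, CSAD, of taurine synthesis, rose by 0.61 and GGCT fell by 0.32 with the empty vector, and 0 were called with the plasmid by edgeR, DESeq2 or limma-voom (1 higher and 0 lower at an unadjusted p below 0.05 in edgeR, as were 11.8% and 10.1% of all genes). Of 15 proline, ornithine and arginine genes, 2 rose and 4 fell with the empty vector, where 10.2% and 9.37% of all genes did. OAT, the ornithine transaminase, rose by 0.52 and AZIN1, an antizyme inhibitor, by 0.42. The spermidine synthase SRM fell by 0.78, the pyrroline carboxylate reductase PYCRL by 0.36 and ALDH4A1, of proline breakdown, by 0.34. The plasmid gave 1 rise (OAT, 0.40) and 2 falls (SRM, -0.45 and ALDH4A1, -0.31).

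Of 20 tested genes of glutamate, glutamine, aspartate, alanine and branched-chain metabolism, 3 rose and 4 fell with the empty vector, beside 10.2% and 9.37% of all genes. PPAT, the first enzyme of purine synthesis, rose by 0.71, BCKDHB, of the branched-chain ketoacid dehydrogenase, by 0.48 and GFPT1, of hexosamine synthesis, by 0.44. CAD, which starts pyrimidine synthesis, fell by 0.48, the mitochondrial carrier gene SLC25A44 by 0.48 and BCKDK by 0.26. With the plasmid 0 rose and 3 fell, with CAD at -0.37, SLC25A44 at -0.37 and NIT2 at -0.29.

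Of 23 tested transporters outside the members, 2 rose and 4 fell with the empty vector, against 10.2% and 9.37% over all genes. The taurine carrier SLC6A6 rose by 0.64 and SLC43A3 by 0.24. SLC43A2 fell by 0.60, SLC38A7 by 0.28 and SLC7A6 by 0.27. With the plasmid SLC6A6 (0.60) and SLC43A3 (0.34) rose and SLC43A2 (-0.46) fell.

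Of 12 regulators of amino acid genes, 8 were called higher and 1 lower with the empty vector, where 10.2% and 9.37% of all genes were. With the plasmid 6 were called higher and 0 lower, against 4.63% and 3.89%. DDIT3, a stress-induced C/EBP family factor, rose from 4.84 ± 0.38 to 8.81 ± 0.69 CPM (log2 fold change 0.86), TRIB3, an ATF4-induced pseudokinase, by 0.73 and CEBPG, a dimer partner of ATF4, by 0.54. ATF4 was at 216.7 ± 10.3 CPM in untreated cells, 313.3 ± 18.9 with the empty vector and 304.2 ± 14.0 with the plasmid. ATF5 fell by 0.44 with the empty vector. The plasmid gave 0.86 for DDIT3, 0.71 for TRIB3 and 0.49 for ATF4. Between the FOXF1 plasmid and the empty vector edgeR called 0 genes of these 6 lists, with 9 higher and 4 lower of 113 tested at an unadjusted p below 0.05, near the shares over all genes (5.09% and 4.34%). DESeq2 called 1, SRM higher, and limma-voom 0.

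The calls in these lists depended on the scaling. Over the 6 lists the TMM fit called 19 genes higher and 18 lower with the empty vector. RLE factors gave 15 and 20, and DESeq2 gave 19 and 20. Most falls were lost only with library totals alone. With library totals alone the calls with the empty vector became 14 higher and 1 lower in the serine and one-carbon list, 4 and 0 in transsulfuration, 7 and 1 in the proline list, 8 and 2 in the glutamate list, 6 and 1 among the transporters and 9 and 0 among the regulators. Over all genes that scaling called 5721 of 16366 higher and 338 lower. ATIC, SRM, CAD, SLC25A44 and SLC43A2 were still called lower under that scaling. FPGS, GLYCTK, GGCT, PYCRL, ALDH4A1, BCKDK, SLC38A7, SLC7A6 and ATF5 were not. With RLE factors SFXN3, GART, BCKDHB and SLC43A3 lost their calls with the empty vector. With the plasmid, library totals alone ended the falls of AHCY, ALDH4A1, SLC25A44 and NIT2.

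Under the 19 alternative settings of processing, 17 of the 22 rises with the empty vector were called in every one: PSAT1, PSPH, SHMT2, MTHFD2, ALDH1L2, CTH, ASNS, GPT2, GLUD1 and 8 transporters (all called ones but SLC43A1). With the plasmid 11 of the 20 were: PSAT1, PSPH, MTHFD2, ALDH1L2, ASNS, GPT2, SLC7A5, SLC3A2, SLC1A4, SLC1A5 and SLC6A9. The share of all called genes kept in all 19 settings was not counted. Whether members keep their calls more often than other genes is therefore not known. Neither fall with the empty vector, nor that of MTHFD1 with the plasmid, was called in all 19. The fall of MTHFD1 was lost only with library totals alone, in both comparisons. That of GOT2 was lost with library totals alone and without empty vector replicate 2.

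**Figure D5:**
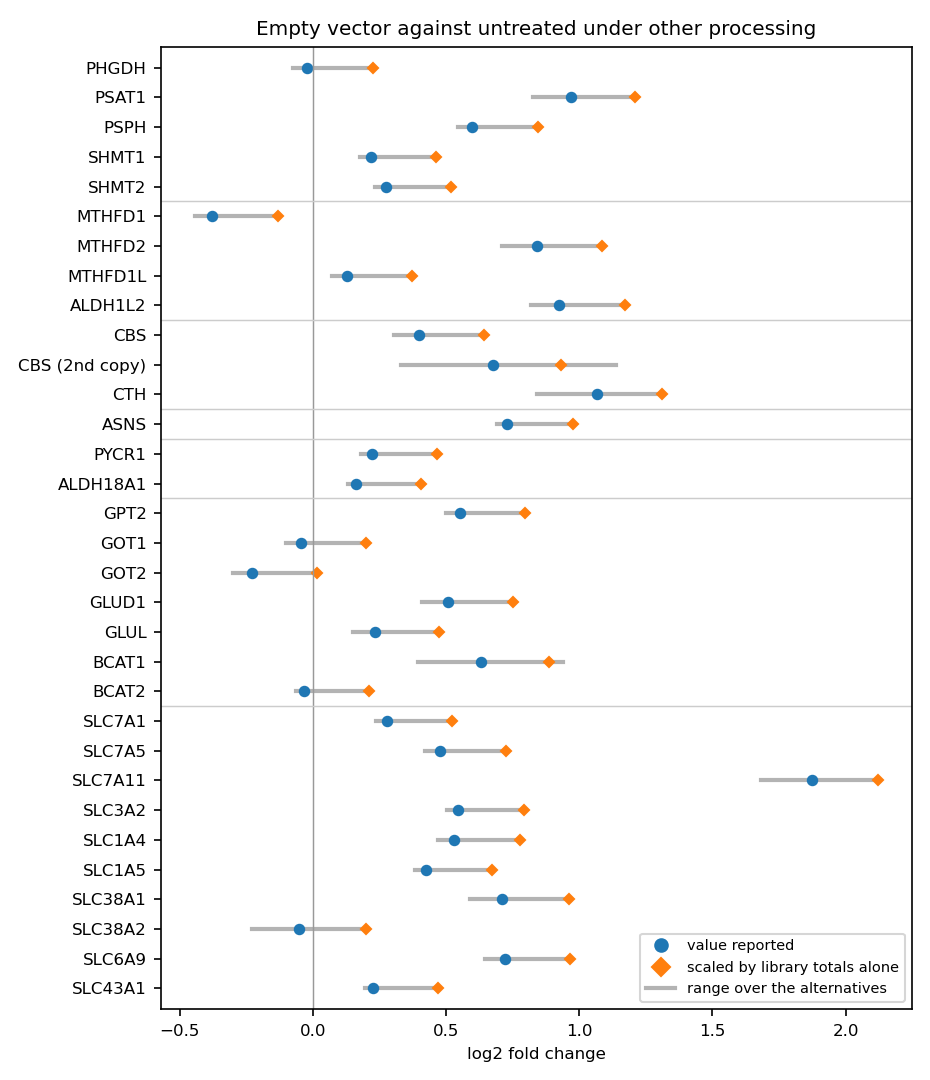
Log2 fold change of each member with the empty vector against untreated cells as reported (circle), with library totals alone (diamond) and over the range of the 19 alternatives (bar). Scaling by totals moves every member up by about the shift of all genes, 0.25, which brings GOT2 to 0.02 and leaves MTHFD1 at -0.13.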

How the data were processed

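The authors deposited unnormalised counts of reads for each Ensembl gene, with 9 library columns per the file headers and 0 columns without a sample. The submitters' processing notes name bcl2fastq, STAR 2.5.2b, HTSeq and GRCh38. Per the labels' protocols the library kit was stranded and selected mRNA. Whether counting used strand, and which annotation, is not given in the sources used here, so reads of antisense or near-identical genes may be misassigned. Of 33 pseudogenes named for members, 7 had at least 10 reads in a library.

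Coordinates and exon lengths are those of GENCODE release 29, which holds 56591 of the 64253 identifiers. Genes were kept by filterByExpr (minimum count 10), scaled by TMM and tested in edgeR 4.0.16 (R 4.3.3) with a quasi-likelihood fit of all 9 libraries, a mean for each group, and Benjamini-Hochberg adjustment over all 16366 genes (threshold 0.05). The common biological coefficient of variation was 0.101. SEs and 95% intervals derive from the fold change and its F statistic. Levels are CPM after TMM scaling, as mean ± SD. The procedure was also run on simulated counts with as many rises as falls. No shift in mitochondrial share was set in them, so they cannot judge the choice of scaling. A gene without a read could reach 0.0872 CPM in the smallest library (limit of 3 counts), and such limits cover counting error only. Replicate pairs differed by more than sampling noise (chi-square per degree of freedom 9.17 to 25.28).

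Members and lists were chosen with earlier results of these data known. All members are named; reads or CPM in every library are given for up to 4 called members of each branch with the largest change with the empty vector, and up to 3 rises and 3 falls of each other list are named, except 1 gene that is not reported here. Alternatives were RLE factors, library totals, exclusion of mitochondrially encoded genes, DESeq2 1.42.0, limma-voom (limma 3.58.1), other filters, a fit of the compared groups only, a replicate block and leaving out each library. Offsets for GC content and length were added after seeing the data. Promoters came from a RefSeq table, in which 7 members were not matched.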

Additional observations from a re-analysis of the deposited data

How the results depend on the processing

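With library totals alone, 0 members were called lower with the empty vector and 0 with the plasmid against untreated cells, GOT2 turned to 0.0155 with the empty vector, and calls over all genes were 5721 higher and 338 lower, and 2320 higher and 180 lower. For the plasmid against the empty vector, genes called higher numbered 9 as reported, 16 with RLE factors, 4 without mitochondrially encoded genes, 106 (2 lower) with DESeq2, 56 (40 lower) without a filter and 16 with the replicate block. Members called stayed 0 under each of these. Leaving out 1 library gave 1 to 154 genes higher and 0 to 172 lower in that comparison, and 0 members higher and 0 to 1 lower. The 1 was MTHFD2 without empty vector replicate 1 (-0.33, adjusted p = 0.0385). For the empty vector against untreated cells, leave-one-out fits called 18 to 22 members higher and 1 to 2 lower, and 1026 to 2106 genes higher and 982 to 1791 lower. For the plasmid against untreated cells they called 14 to 20 members higher and 1 lower, and 440 to 947 genes higher and 350 to 782 lower. Without untreated replicate 2, plasmid replicate 2 or plasmid replicate 3, 14 members were higher in that comparison.

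Offsets for GC content and length, chosen after seeing the data, called 1026 genes lower with the plasmid against untreated cells with 22 and 2, and 20 and 1, members called (GLUL lost and ALDH18A1 gained with the empty vector). Across genes, fold changes followed GC content with a Spearman rho of -0.27 with the empty vector, -0.038 with the plasmid and 0.387 between the transfected groups. Same-numbered libraries did not deviate together (9 correlations from -0.0836 to 0.078, 0 over 0.1), so the numbers do not pair the libraries. The replicate block gave 22 and 2, 20 and 1, and 0 and 0 member calls and changed no member call. Causes of these differences were not tested. SLC7A11, BCAT1 and the second CBS entry are limited by their low counts.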
